A study of Mus musculus with 11 samples.

Results

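Mouse embryonic fibroblasts (MEFs) carrying any of 3 changes at the Trex1 locus were set against wild-type (WT) cells, and the genes described here are those whose 8 mutant libraries all lay on one side of all 3 WT libraries. The libraries were 3 WT, 3 Trex1-/-, 3 Trex1D18N (D18N below) and 2 Trex1p212fs (p212fs below), which together are all 11 libraries of the series. Per the labels, the cells came from embryos at day 13.5 and RNA was collected at passage 2 from cultures in DMEM with serum, the labels name no added agent, and the growth text names both primary and spontaneously immortalized MEFs without assigning a library to either. D18N changes an aspartate in the exonuclease active site, p212fs is by its name a frameshift, and the labels state for neither whether the cells carried 1 or 2 copies. Each mutant genotype had equal weight in the mean of the mutants. All 3 genotypes were compared with the same 3 WT libraries.

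The exonuclease TREX1 clears DNA from the cytosol. Where that DNA is not removed, the sensor cGAS makes a cyclic dinucleotide that activates STING, and IRF3 then switches on type I interferon. Interferon acts back on cells through its receptor. Many of the genes switched on in this way carry an interferon-stimulated response element (ISRE) near their start.

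Of 16990 genes tested, 830 were separated in this sense (4.89%). All 8 mutant libraries lay above WT for 389 genes (2.29%) and below WT for 441 genes (2.6%). The separation was judged on each gene's count scaled to the library total (CPM), and the edgeR test of the mean of the mutants against WT, whose threshold was an adjusted p of 0.05, used the same libraries, so its values are given as a description of the separated genes and not as independent support. By that test 1083 genes changed (6.37%), of which 439 rose (2.58%) and 644 fell (3.79%), and 183 (1.08%) and 264 (1.55%) of these were also separated. Without WT replicate 2, 1064 genes were separated higher and 937 lower, and without WT replicate 1, 689 were lower. The genes that passed the test dropped to 49 higher and 118 lower without WT replicate 3, to 110 and 237 without WT replicate 1, to 105 and 205 or 98 and 195 without either p212fs library, and to 231 and 374 without D18N replicate 2. They reached 692 higher without Trex1-/- replicate 2 and 1071 lower without WT replicate 2. No gene passed the threshold in Trex1-/- alone, against 2065 higher (12.2%) and 2238 lower (13.2%) in D18N and 1382 higher (8.13%) and 1520 lower (8.95%) in p212fs.

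Library totals ran from 16073955 to 21765536 counts. Trex1 itself held 0 counts throughout the 11 libraries, so its level checks no genotype label. Atrip, the gene next to it, held between 16.9 and 23.6 CPM in every library. Xist and the Y-linked Ddx3y showed a female pattern in the 3 WT libraries, Trex1-/- replicate 2 and D18N replicate 1, and a male pattern in the other mutant libraries. By the rule every separated gene lay beyond WT in mutant libraries of both patterns, but sex pattern and genotype were partly confounded. With sex pattern as a term in the edgeR fit, 523 genes rose and 207 fell, against 439 and 644 without it, and 162 and 71 of these were separated. On the X chromosome 14 of 571 genes tested were separated higher (2.45%) and 16 lower (2.8%), near the 2.29% and 2.6% of all genes. The labels do not say whether a genotype's libraries were made from different embryos or cultures. Both sex patterns occurred within Trex1-/- and within D18N, so not all libraries of these genotypes came from the same embryo. For libraries that share a pattern, as in WT and p212fs, the origin is not known, and variation between them may be technical. P-values reflect only how these libraries vary.

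The separated genes were mostly moderate in size. Their median log2 fold change was 0.82 for the higher genes (0.73 in Trex1-/-, 0.86 in D18N and 0.76 in p212fs) and -0.68 for the lower genes (-0.53, -0.82 and -0.64). The mean of the mutants was at least 2-fold above WT for 156 genes and at least 2-fold below for 138, and every genotype reached 2-fold for 81 and 74. The nearest mutant and WT libraries were at least 1.5-fold apart for 42 higher and 22 lower genes. Trex1-/- replicate 3 was the mutant library nearest to WT for 109 higher and 182 lower genes, more often than any other library. WT replicate 2 was the WT library nearest to the mutants for 204 and 216. At the edge of the rule, the WT libraries of Casp12, a caspase of the endoplasmic reticulum, reached 41.4 CPM and Trex1-/- replicate 3 held 41.5. Just outside it, WT replicate 1 and D18N replicate 3 of Cep78, which encodes a centrosomal protein, held 14.44 and 14.45 CPM.

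Among the higher genes, those of the interferon response had the highest share separated of the 35 gene lists counted. Of 59 interferon-stimulated genes tested, 27 were separated higher (45.8%, against 2.29% of all genes) and none lower, and the median log2 fold change over the 59 was 1.32, against 0 over all genes. It was 1.98 in Trex1-/-, 1.25 in D18N and 0.73 in p212fs. A further 10 members lay above every WT library in 7 of the 8 mutant libraries and 13 in 6. Of the 59, 9 passed the edgeR threshold, all of them higher, against 2.58% of all genes. That count varied with the model: it was 50 with a sex-pattern term, 40 with DESeq2, 5 with limma-voom, 3 with a replicate block and 2 without the filter on low counts.

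**Figure D1:**
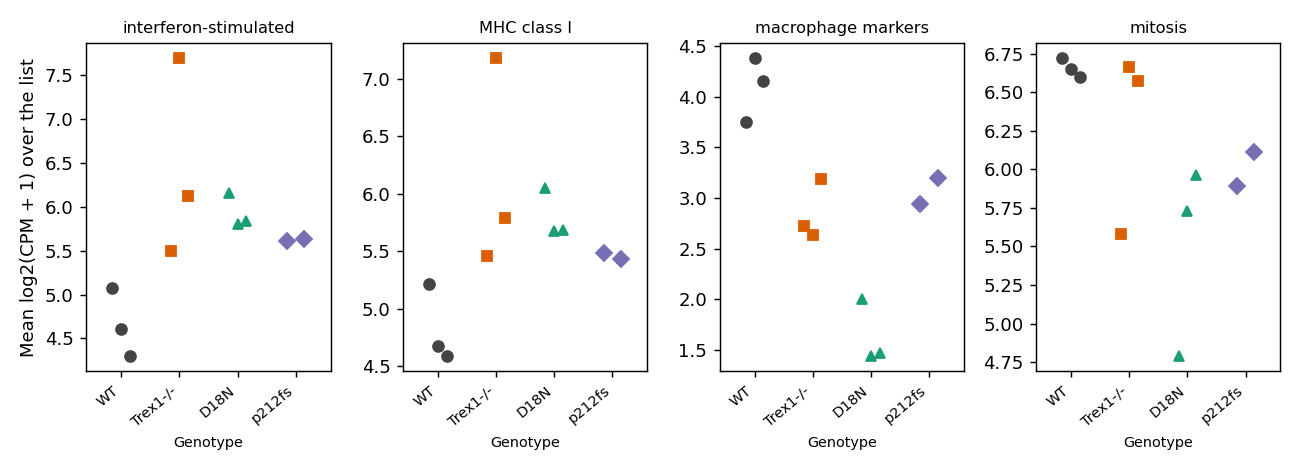
Mean log2(CPM + 1) over the members of 4 gene lists, one point per library, by genotype (WT and Trex1-/- and D18N with 3 libraries each, p212fs with 2). The interferon-stimulated mean ran from 4.30 to 5.07 in WT and from 5.50 to 7.69 in the mutants; the macrophage mean ran from 3.75 to 4.38 in WT and from 1.44 to 3.20 in the mutants; the mitosis means overlapped.

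The mean level of the interferon list, as log2(CPM + 1), was 5.07, 4.61 and 4.30 in the WT libraries. It was 5.50, 7.69 and 6.12 in Trex1-/-, 6.16, 5.80 and 5.84 in D18N, and 5.61 and 5.63 in p212fs. Every mutant library lay above every WT library, the 2 p212fs libraries nearly coincided, and Trex1-/- replicate 2 stood far above the rest. Without that library the number separated was again 27, while 42 rather than 9 passed the edgeR threshold, and without Trex1-/- replicate 1 the counts were 33 and 42. WT was uneven as well, with replicate 1 the highest, and 44 members were separated without it. The number of calls also moved with WT: 1 member passed without WT replicate 1, 2 without WT replicate 2 and 0 without WT replicate 3. They were also reduced to 1 without either p212fs library and to 2 without D18N replicate 2 or 3.

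Rsad2, which encodes the antiviral enzyme viperin, had the widest gap. It held 6.92, 5.92 and 5.59 CPM in WT, 22.8, 406 and 52.1 in Trex1-/-, 52.5, 39.0 and 35.9 in D18N, and 57.3 and 52.5 in p212fs. The lowest mutant library, Trex1-/- replicate 1, was thus well above the highest WT library, and 7 of the 8 mutant libraries fell between 22.8 and 57.3. The log2 fold change was 3.54 ± 0.88 (SE, edgeR adjusted p = 0.0477).

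Ifit1, whose protein binds viral RNA that lacks the host's cap modification, held 79.4, 46.3 and 43.4 CPM in WT. It held 139, 712 and 181 in Trex1-/-, 190, 136 and 138 in D18N, and 347 and 366 in p212fs. Here both p212fs libraries exceeded all D18N libraries, the reverse of the list as a whole. The log2 fold change was 2.22 ± 0.53 (edgeR adjusted p = 0.0395).

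The cytosolic RNA sensors Ifih1 (MDA5) and Ddx58 (RIG-I) were both separated. Ifih1 held 27.9, 27.0 and 20.1 CPM in WT, 51.2, 214 and 71.9 in Trex1-/-, 64.3, 61.7 and 59.5 in D18N, and 75.4 and 83.5 in p212fs. Its log2 fold changes were 2.18 in Trex1-/-, 1.32 in D18N and 1.61 in p212fs, with a mean of 1.70 ± 0.41 (edgeR adjusted p = 0.0416). Ddx58 held 73.7 to 105 CPM in WT and 127 to 341 in the mutants, with a log2 fold change of 0.80 ± 0.23 that missed the threshold (edgeR adjusted p = 0.062). Ddx60, a helicase linked to RIG-I signalling, held 4.70, 6.79 and 3.15 CPM in WT and from 16.1 to 60.3 in the mutants, with a median of 21.7. It rose by 2.33 ± 0.43 (edgeR adjusted p = 0.0161). Of 17 genes on the DNA-sensing list, 0 were separated, against 4.89% of all genes. The edgeR threshold was passed by 1 of them, lower, against 3.79% of all genes. At those shares a list of this size would hold few such genes.

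Stat2, the signalling subunit that carries the interferon signal into the nucleus, held 119, 111 and 90.3 CPM in WT. It held 196, 450 and 246 in Trex1-/-, 302, 240 and 221 in D18N, and 187 and 180 in p212fs. By the rule the groups did not overlap, and the 2 p212fs libraries were the lowest of the mutants. The log2 fold change was 1.15 ± 0.24 (edgeR adjusted p = 0.0232). Usp18, which dampens signalling at the interferon receptor, held 24.5 to 54.3 CPM in WT and 64.0 to 264 in the mutants (edgeR adjusted p = 0.098).

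The guanosine triphosphatases that interferon switches on against pathogens inside cells were separated nearly as a family; these families were counted by gene symbol after the values were seen. One set of 9 held the immunity-related GTPases tested together with Gvin1 and Gvin2, very large GTPases of a separate family. All 9 of this set and 7 of 10 guanylate-binding proteins lay above WT in every mutant library, against 2.29% of all genes. In each of these sets 3 genes passed the edgeR threshold, all of them higher, against 2.58% of all genes. Iigp1 held 28.2, 26.7 and 17.6 CPM in WT, 85.5, 368 and 107 in Trex1-/-, 121, 73.5 and 91.6 in D18N, and 45.9 and 49.3 in p212fs. Irgm2 held 28.4, 31.9 and 26.6 in WT, 91.2, 229 and 87.1 in Trex1-/-, 98.5, 66.9 and 77.1 in D18N, and 49.5 and 47.7 in p212fs. In both genes the p212fs libraries were the lowest of the mutants, and Trex1-/- without its replicate 2 overlapped D18N. Both differed among the mutants in the edgeR test of the 3 genotypes (adjusted p = 0.0432 for Iigp1 and 0.0233 for Irgm2), and their log2 fold changes over all mutants were 1.95 ± 0.47 and 1.47 ± 0.30 (edgeR adjusted p = 0.0406 and 0.0232).

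Gbp7 held 16.8, 19.7 and 10.9 CPM in WT and from 30.1 to 170 in the mutants, with a median of 50.6. Gbp6 held 5.98, 4.48 and 5.21 in WT and from 13.2 to 63.5, with a median of 16.4. By the rule no mutant library reached down to WT. Their log2 fold changes were 1.77 ± 0.41 and 2.00 ± 0.49 (edgeR adjusted p = 0.036 and 0.0423). These genes lie in clusters of near-identical copies, and 29.0% of the exonic bases of Gbp6 and 11.3% of those of Gbp7 are shared with a neighbouring gene model on the same strand, so reads could be split between copies and single values are uncertain.

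Antigen presentation by MHC class I followed. Of 21 genes tested, 7 were separated higher (33.3%, against 2.29% of all genes). All 21 had a log2 fold change above 0, and the median was 0.99 (1.63 in Trex1-/-, 0.94 in D18N, 0.62 in p212fs). Nlrc5, the transactivator of these genes, held 10.4, 9.28 and 6.18 CPM in WT and from 16.8 to 121 in the mutants, with both p212fs libraries the lowest. B2m, the light chain common to class I molecules, held 676, 402 and 424 in WT, 885, 1678 and 913 in Trex1-/-, 1124, 892 and 864 in D18N, and 1065 and 1022 in p212fs. These 2 genes rose, by 2.02 ± 0.45 and 1.04 ± 0.25 (edgeR adjusted p = 0.0334 and 0.0346).

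The heavy chain H2-K1 held 338, 165 and 160 CPM in WT and from 393 to 1693 in the mutants, and its log2 fold change of 1.46 ± 0.46 missed the threshold (edgeR adjusted p = 0.0838). Tap2, a subunit of the peptide transporter, held 20.6 to 29.0 CPM in WT and 32.1 to 80.9 in the mutants. Tapbp (tapasin), which loads peptides, held 112 to 130.5 CPM in WT and 170 to 532 in the mutants. Both were separated, and neither passed the threshold (edgeR adjusted p = 0.106 and 0.1). Without WT replicate 3, D18N replicate 2 or either p212fs library, none of the MHC genes passed, and without WT replicate 1 or 2, 1 did. Without Trex1-/- replicate 1, 10 passed, and 11 did without replicate 2. Without WT replicate 1, 16 were separated. With a sex-pattern term 15 passed, with DESeq2 10, and with a replicate block or without the filter none.

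**Figure D2:**
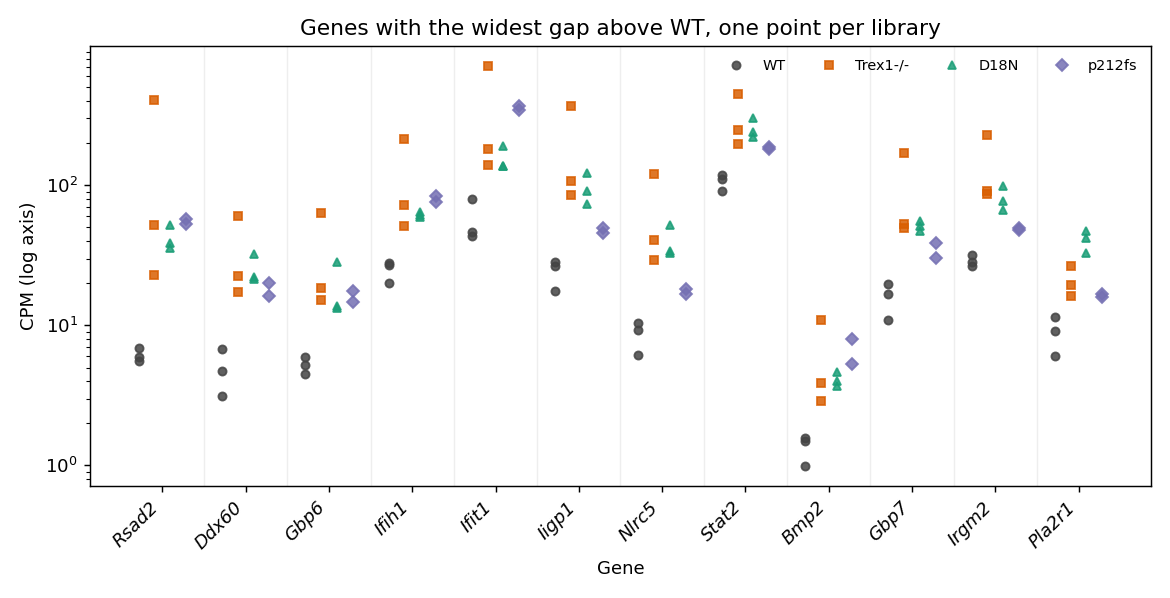
CPM (log axis) of the 12 genes with the widest gap above WT among those past the edgeR threshold, one point per library, with genotype by colour and marker. In each gene the lowest of the 8 mutant libraries lies above the highest of the 3 WT libraries, and Trex1-/- replicate 2 is the highest point in all of them but Pla2r1.

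Of 28 cytokines and chemokines on a list of secreted inflammatory genes, none was separated, against 4.89% of all genes. None passed the edgeR threshold, against 6.37%, and the median log2 fold change was 0.92. The chemokine Ccl5, counted with the interferon list, was separated over a wide range. It held 3.93, 1.87 and 1.41 CPM in WT, 5.43, 379 and 23.1 in Trex1-/-, 47.2, 23.1 and 17.4 in D18N, and 259 and 324 in p212fs. Its lowest mutant library lay close above WT, and its log2 fold change of 5.42 ± 1.42 missed the threshold (edgeR adjusted p = 0.056).

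The ISRE was searched for as GAAA, then any 2 bases, then GAAA, on both strands of the window from 250 bases before to 50 bases after each gene's start (RefSeq, GRCm38.p6). It was present in 38 of 302 separated higher genes with a window (12.6%), in 6 of 323 separated lower genes (1.86%), in 446 of 11909 genes tested (3.75%) and in 3.99% of all 27025 windows. Among the separated interferon genes it was present in 13 of 20 (65%), against 23 of 44 (52.3%) of all interferon-list genes tested. Among separated higher genes on neither the interferon nor the MHC list it was present in 24 of 277 (8.66%). A match is a run of letters and does not show that a factor was bound. Windows of 4 separated genes are shown because these genes are described above and carry the motif, which is in capitals, 1 or 2 times.
The windows are Rsad2 at chr12:26456403-26456702 (minus strand), Ifit1 at chr19:34640639-34640938 (plus), Ddx60 at chr8:61927837-61928136 (plus) and B2m at chr2:122147437-122147736 (plus), each given 5′ to 3′ along the gene's strand.
Rsad2: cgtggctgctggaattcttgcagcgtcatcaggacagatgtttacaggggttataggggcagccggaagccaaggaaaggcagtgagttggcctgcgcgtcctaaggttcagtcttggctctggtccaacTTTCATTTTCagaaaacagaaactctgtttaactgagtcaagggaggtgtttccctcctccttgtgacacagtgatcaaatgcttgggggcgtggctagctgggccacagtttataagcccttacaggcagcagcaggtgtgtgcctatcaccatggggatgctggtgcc
Ifit1: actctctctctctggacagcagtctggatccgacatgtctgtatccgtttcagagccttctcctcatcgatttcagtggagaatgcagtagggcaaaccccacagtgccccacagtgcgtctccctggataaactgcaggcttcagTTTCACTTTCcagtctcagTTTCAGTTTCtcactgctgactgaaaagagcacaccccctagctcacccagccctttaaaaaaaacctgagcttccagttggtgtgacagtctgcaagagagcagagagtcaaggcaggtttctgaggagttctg
Ddx60: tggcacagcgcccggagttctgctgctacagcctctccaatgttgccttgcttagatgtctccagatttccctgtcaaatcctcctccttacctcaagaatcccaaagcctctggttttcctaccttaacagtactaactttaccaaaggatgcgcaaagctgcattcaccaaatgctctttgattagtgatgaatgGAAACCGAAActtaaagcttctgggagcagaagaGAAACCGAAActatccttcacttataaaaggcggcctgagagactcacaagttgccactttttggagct
B2m: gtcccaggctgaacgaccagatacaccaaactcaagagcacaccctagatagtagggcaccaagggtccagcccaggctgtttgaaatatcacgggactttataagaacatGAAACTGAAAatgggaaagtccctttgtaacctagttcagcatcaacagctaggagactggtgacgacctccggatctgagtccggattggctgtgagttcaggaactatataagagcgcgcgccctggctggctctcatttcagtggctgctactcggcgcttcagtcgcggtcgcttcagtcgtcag
The motif began at base 131 of the Rsad2 window, bases 147 and 166 of the Ifit1 window, bases 198 and 232 of the Ddx60 window and base 112 of the B2m window. In Rsad2 and Ifit1 it was read on the strand opposite to the gene, and in Ddx60 and B2m on the gene's strand.

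**Figure D3:**
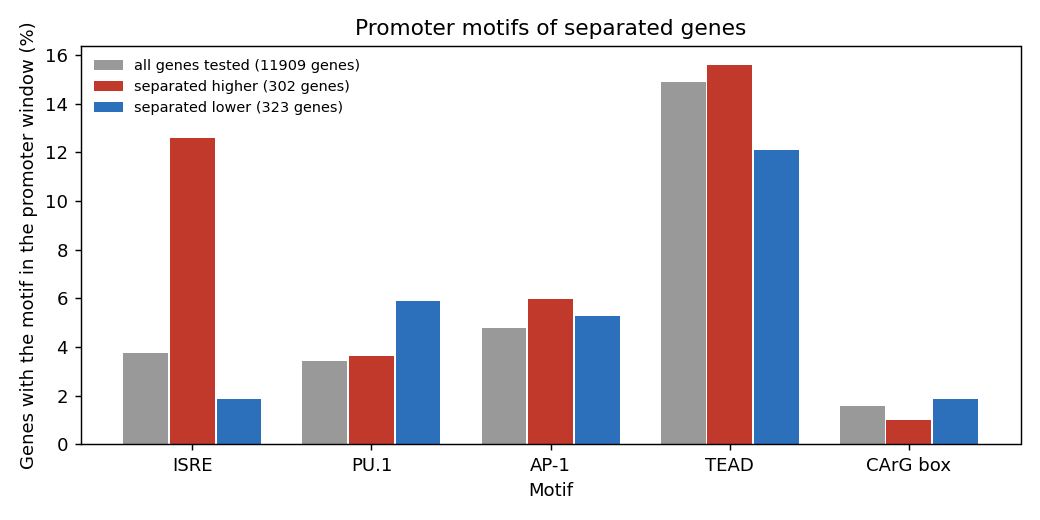
Share of genes (%) whose window from 250 bases before to 50 after the start holds each of 5 motifs, for all genes tested (11909 with a window), separated higher genes (302) and separated lower genes (323). The ISRE stands at 12.6% of the higher genes against 3.75% of all genes, while the shares of the TEAD motif were 15.6% and 14.9%.

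Separated higher genes also lay outside the interferon response. Pla2r1, the receptor for secreted phospholipase A2, held 6.09, 11.5 and 9.06 CPM in WT, 19.5, 26.5 and 16.1 in Trex1-/-, 47.3, 42.3 and 32.7 in D18N, and 16.9 and 16.0 in p212fs. All D18N libraries were above all others, and the genotypes differed among the mutants (edgeR adjusted p = 0.00394). It rose by 1.43 ± 0.21 (edgeR adjusted p = 0.00789). It was also the only one of the 12 higher genes with the widest gap that stayed past the threshold whichever library was left out; of the other 11, all were lost without WT replicate 1 and without WT replicate 3, with adjusted p-values up to 0.167 over the 12.

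Bmp2, a secreted bone morphogenetic protein, held 0.996, 1.49 and 1.57 CPM in WT, 3.86, 10.9 and 2.87 in Trex1-/-, 4.65, 3.99 and 3.68 in D18N, and 5.27 and 7.95 in p212fs. Its level was low, and that the groups did not overlap follows from the rule. It rose by 1.98 ± 0.42 (edgeR adjusted p = 0.0232). Among separated genes past the threshold that were at least 2-fold higher in each genotype, it was one of the 5 with the smallest range over the 3 genotypes (log2 fold changes of 2.12, 1.61 and 2.22), as were Ifih1, Car12, a membrane carbonic anhydrase (1.36, 2.00 and 1.63), Unc5c, a netrin receptor (1.60, 1.18 and 1.49), and Nabp1, a single-stranded DNA binding protein (1.02, 1.14 and 1.32).

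Crispld1, a secreted cysteine-rich protein, differed the other way. It held 1.66, 4.17 and 3.04 CPM in WT, 11.1, 8.60 and 7.45 in Trex1-/-, 7.54, 6.04 and 4.85 in D18N, and 28.1 and 25.1 in p212fs. The 2 p212fs libraries were far above the other mutants (edgeR adjusted p among the mutants = 0.00114), and the rise over all mutants was 1.94 ± 0.26 (edgeR adjusted p = 0.00507). An opposite-strand gene model overlaps 12.1% of its exonic bases, and the strand setting of the counting is not given in the sources used here.

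Myog (myogenin), a transcription factor of muscle differentiation, was separated only in the narrow sense of the rule. It held 0, 0.124 and 0 CPM in WT, 0.782, 0.256 and 0.331 in Trex1-/-, 56.7, 23.8 and 22.98 in D18N, and 1.06 and 0.865 in p212fs. The D18N level was far above the other genotypes, which stayed near 1 CPM or below (edgeR adjusted p among the mutants = 3.68e-05). It was the only separated gene of 25 skeletal muscle markers. Of these, 18 rose by the edgeR test in the mean of the mutants, against 2.58% of all genes. The summed level of these markers ran from 71 to 116 CPM in WT and from 66.2 to 3190 in the mutants.

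Other higher genes chosen after their values were seen had narrow ranges across the mutants. Msi2, an RNA-binding regulator of translation, held 22.8, 34.1 and 31.0 CPM in WT and from 44.2 to 53.8 in the mutants. Apobec3, an antiviral cytidine deaminase, held 16.2, 15.8 and 18.7 in WT and from 24.96 to 39.5 in the mutants. Both rose (0.72 ± 0.11 and 0.84 ± 0.14, edgeR adjusted p = 0.008 and 0.010), and in neither did Trex1-/- replicate 2 stand apart as it did for Rsad2. Fgf10, a growth factor, held 5.15 to 6.66 CPM in WT and 7.49 to 38.0 in the mutants (1.76 ± 0.29, edgeR adjusted p = 0.010).

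On the lower side, markers of macrophages had the highest share separated of the lists counted. Of 24 tested, 15 were separated lower (62.5%, against 2.6% of all genes) and 21 fell by the edgeR test (against 3.79%). All 24 had a negative log2 fold change, with a median of -1.90. The median was -1.46 in Trex1-/-, -2.97 in D18N and -1.06 in p212fs. The summed level of the list was 927, 1260 and 1090 CPM in WT, 291, 328 and 441 in Trex1-/-, 164, 86.8 and 81.9 in D18N, and 573 and 759 in p212fs. WT was the highest genotype and D18N the lowest in this sum, of which Lyz2 made up 619 of 927 CPM in WT replicate 1. In the list's mean log2(CPM + 1), Trex1-/- (2.72, 2.63 and 3.19) overlapped p212fs (2.94 and 3.20), while WT again lay above and D18N below all others. In bulk RNA, fewer cells of a type and less RNA per cell cannot be told apart. The part that the macrophage markers play in other results was not tested.

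The 3 chains of complement C1q, made chiefly by macrophages, were all separated. C1qb held 18.1, 23.4 and 23.6 CPM in WT, 7.40, 2.66 and 12.5 in Trex1-/-, 2.78, 1.16 and 1.28 in D18N, and 5.94 and 7.25 in p212fs. The mutant libraries spread over a wide range, all of it below WT by the rule. C1qb fell by 2.32 ± 0.35 on the log2 scale (edgeR adjusted p = 0.0083), and it differed among the mutants (edgeR adjusted p = 0.0171). C1qa and C1qc fell by 1.97 ± 0.43 and 2.17 ± 0.40 (edgeR adjusted p = 0.0276 and 0.0156).

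Receptors and signalling adaptors of myeloid cells showed the same side. Trem2, a lipid-sensing receptor, held 9.35, 11.8 and 9.33 CPM in WT, 2.53, 1.54 and 4.36 in Trex1-/-, 1.30, 1.05 and 1.00 in D18N, and 4.65 and 5.19 in p212fs. Tyrobp, the adaptor through which Trem2 signals, held 9.41, 13.4 and 11.1 in WT, 2.94, 2.36 and 3.70 in Trex1-/-, 1.70, 1.16 and 1.17 in D18N, and 7.06 and 6.81 in p212fs. In both genes all D18N libraries lay lowest, then all Trex1-/-, then p212fs, then WT, with no overlap. They fell by 2.04 ± 0.24 and 1.91 ± 0.18 (edgeR adjusted p = 0.00507 and 0.00138), and both differed among the mutants (edgeR adjusted p = 0.00438 and 0.00048).

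Lyz2, the lysozyme of myeloid cells, was the most heavily counted member. It held 619, 768 and 673 CPM in WT, 158, 138 and 239 in Trex1-/-, 89.2, 46.8 and 39.9 in D18N, and 408 and 548 in p212fs. The p212fs libraries came closest to WT. The log2 fold change was -1.95 in Trex1-/-, -3.54 in D18N and -0.58 in p212fs.

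Marco, a scavenger receptor, spread unlike the others, with 35.9, 55.7 and 54.0 CPM in WT, 5.89, 33.1 and 9.94 in Trex1-/-, 1.82, 0.443 and 0.390 in D18N, and 2.75 and 2.92 in p212fs. One library, Trex1-/- replicate 2, lay just under WT, and p212fs lay far below Trex1-/-, the reverse of Lyz2. Csf1r, the receptor for the macrophage growth factor, held 23.6 to 52.7 CPM in WT and 4.21 to 23.2 in the mutants. The myeloid transcription factor Spi1 (PU.1) held 7.47 to 13.7 in WT and 0.277 to 6.71 in the mutants. With a sex-pattern term 12 of the 24 markers passed the edgeR threshold, against 21 without it. Without WT replicate 3, 13 passed, and 15 passed without either p212fs library.

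**Figure D4:**
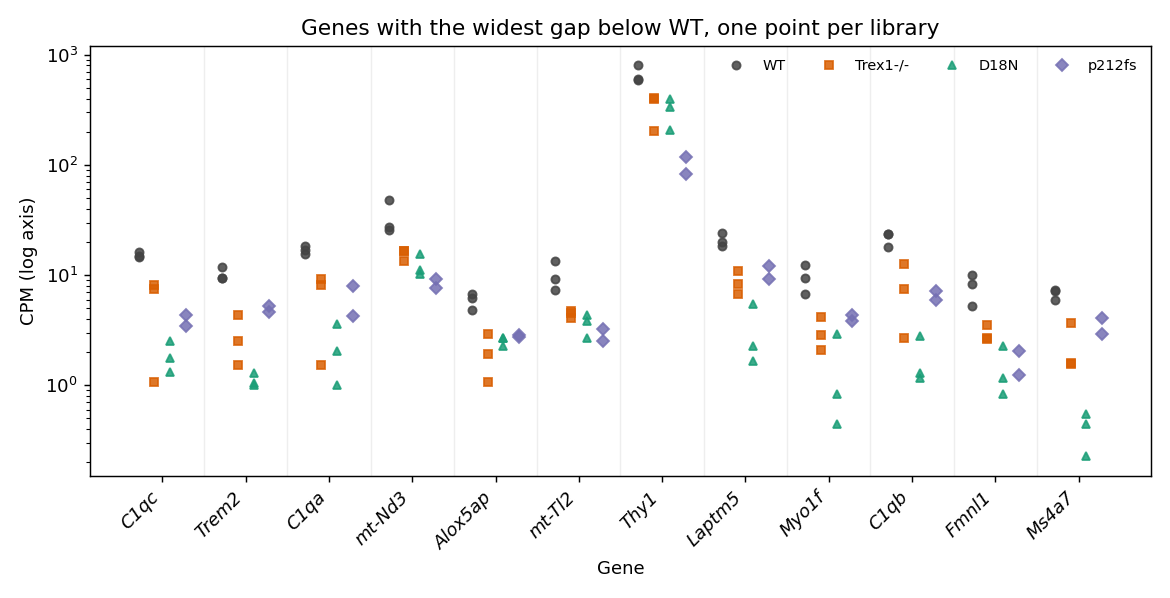
CPM (log axis) of the 12 genes with the widest gap below WT among those past the edgeR threshold, one point per library, with genotype by colour and marker. In each gene the highest of the 8 mutant libraries lies below the lowest of the 3 WT libraries; D18N libraries are the lowest group for Trem2, Ms4a7 and Laptm5, and p212fs for Thy1 and mt-Nd3.

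Other separated lower genes are known from blood cells without being on the macrophage list. Alox5ap, which presents arachidonate to 5-lipoxygenase, held 4.81, 6.17 and 6.72 CPM in WT and from 1.08 to 2.93 in the mutants. Its log2 fold changes were -1.59 in Trex1-/-, -1.20 in D18N and -1.13 in p212fs. Fermt3, an integrin activator of blood cells, held 7.30, 13.7 and 13.1 in WT and from 1.88 to 6.19 in the mutants. They fell by 1.31 ± 0.24 and 1.61 ± 0.28 on the log2 scale (edgeR adjusted p = 0.0144 and 0.0101).

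The PU.1 motif GAGGAAGT, searched on both strands, was present in 19 of 323 windows of separated lower genes (5.88%), in 3.64% of those of separated higher genes and in 3.42% of all genes tested. Among the separated macrophage markers it was present in 1 of 11. That window, of C1qc at chr4:136892865-136893164 (minus strand), is shown with the motif in capitals, read on the strand opposite to the gene.
C1qc: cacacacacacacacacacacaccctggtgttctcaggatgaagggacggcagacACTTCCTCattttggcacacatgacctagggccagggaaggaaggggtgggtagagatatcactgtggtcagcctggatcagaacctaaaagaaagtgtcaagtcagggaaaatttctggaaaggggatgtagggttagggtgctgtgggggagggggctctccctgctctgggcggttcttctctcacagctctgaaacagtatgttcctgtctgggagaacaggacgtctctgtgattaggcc

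Some transcripts of the mitochondrial genome formed a second group of lower genes. On the mitochondrial chromosome 8 of 26 genes tested were separated lower (30.8%, against 2.6%) and none higher, and they included 3 of 14 genes on the list of its coding and ribosomal genes and 5 of 12 mitochondrial tRNAs. The gene mt-Nd3, for a subunit of complex I, held 47.6, 25.5 and 27.3 CPM in WT, 13.4, 16.6 and 16.5 in Trex1-/-, 10.3, 11.2 and 15.7 in D18N, and 9.30 and 7.62 in p212fs. For mt-Tl2, a leucine tRNA, the values were 13.6, 9.28 and 7.38 in WT, and from 2.54 to 4.69 in the mutants. Both fell, by 1.54 ± 0.21 and 1.51 ± 0.21 on the log2 scale (edgeR adjusted p = 0.00507 and 0.00612).

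The other separated members of that list were mt-Nd2, with 668 to 791 CPM in WT and 338 to 612 in the mutants, and mt-Co3, with 21.7 to 27.0 CPM in WT and 11.96 to 17.3 in the mutants. The summed level of the list overlapped between the groups, at 11500 to 12600 CPM in WT and 9270 to 12200 in the mutants. Of 32 nuclear genes of oxidative phosphorylation, none was separated (against 4.89% of all genes) and none passed the edgeR threshold (against 6.37%). Without WT replicate 3, 1 of the 14 mitochondrial genes passed, against 6 with all libraries, and 3 passed without p212fs replicate 1. Without WT replicate 2, 5 were separated. With a sex-pattern term 3 passed.

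Genes of amino acid supply, many of them targets of the transcription factor ATF4, were lower as well. Of 22 tested, 5 were separated lower (22.7%, against 2.6% of all genes) and 14 fell by the edgeR test (against 3.79%). The median log2 fold change was -0.72 (-0.40 in Trex1-/-, -0.41 in D18N and -1.32 in p212fs). Asns, asparagine synthetase, held 342, 260.0 and 282 CPM in WT, 194, 218 and 235 in Trex1-/-, 137, 230.0 and 177 in D18N, and 88.5 and 91.6 in p212fs. Slc7a5, the light chain of the large neutral amino acid transporter, held 391, 368 and 374 in WT, 277, 215 and 358 in Trex1-/-, 213, 287 and 205 in D18N, and 55.2 and 47.5 in p212fs. In both genes the p212fs libraries lay below all other mutants, and the genotypes differed (edgeR adjusted p among the mutants = 0.0034 and 0.000124).

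Its partner chain Slc3a2 held 299 to 430 CPM in WT and 144 to 280 in the mutants. Of the serine synthesis enzymes, Phgdh held 596, 370 and 475 CPM in WT, 332, 297 and 367 in Trex1-/-, 174, 218 and 216 in D18N, and 263 and 243 in p212fs, so that D18N was lowest here. Psat1 held 430 to 538 CPM in WT and 163 to 408 in the mutants. All 5 fell, Asns by 0.98 ± 0.15 and Slc7a5 by 1.35 ± 0.15 on the log2 scale (edgeR adjusted p = 0.0083 and 0.00436). Without WT replicate 3, 6 of the 22 passed, 9 passed without WT replicate 1 and 8 without either p212fs library. Without WT replicate 2, 10 were separated, and 8 without D18N replicate 2. With a sex-pattern term 9 passed.

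**Figure D5:**
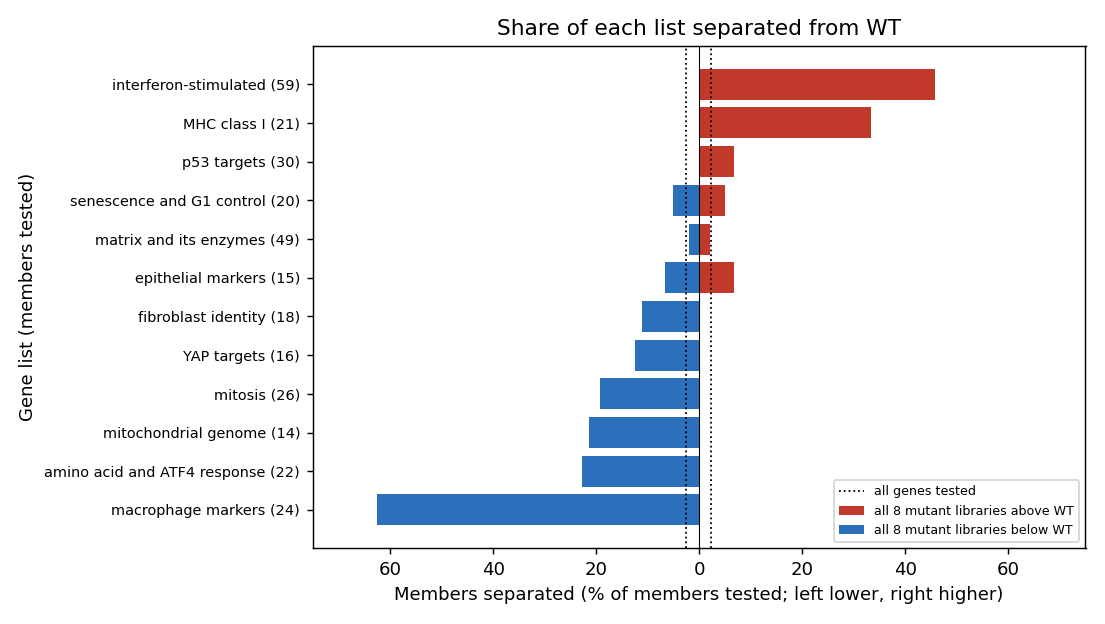
Members of 12 gene lists separated from WT, as a percentage of the members tested (numbers in brackets), with lower genes to the left and higher genes to the right; dotted lines mark the shares of all genes tested, 2.6% lower and 2.29% higher. Interferon-stimulated genes reach 45.8% on the right and macrophage markers 62.5% on the left.

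Of 26 genes of mitosis, 5 were separated lower (19.2%, against 2.6% of all genes) and 2 fell by the edgeR test (against 3.79%). Cdc20, the activator of the anaphase-promoting complex, held 171, 127 and 136 CPM in WT, 56.7, 96.0 and 120.5 in Trex1-/-, 31.8, 47.6 and 60.96 in D18N, and 104 and 107 in p212fs. Kif23, a motor protein of cytokinesis, held 78.5, 82.1 and 76.5 in WT, 36.0, 62.9 and 72.4 in Trex1-/-, 20.8, 38.3 and 42.8 in D18N, and 39.4 and 44.5 in p212fs. For both genes a Trex1-/- library came closest to WT. They fell by 0.94 ± 0.23 and 0.88 ± 0.23 on the log2 scale (edgeR adjusted p = 0.0415 and 0.048). The list's mean log2(CPM + 1) was 6.72, 6.65 and 6.60 in WT and ran from 4.79 to 6.66 in the mutants, where Trex1-/- replicate 2 lay within the range of WT and replicate 3, at 6.57, just under it. Without Trex1-/- replicate 2, 10 members were separated and 7 passed, and without WT replicate 2, 8 were separated. None passed without any 1 WT library, either p212fs library or D18N replicate 2, and 4 passed without D18N replicate 1 or Trex1-/- replicate 1. With a sex-pattern term, with limma-voom or without the filter none passed, with a replicate block 4 and with DESeq2 8. Of 30 genes of DNA replication, only Mcm2, a helicase subunit, was separated (lower), against 2.6% of all genes. By the edgeR test 3 of the 30 fell, against 3.79%.

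Among 18 genes of fibroblast identity, Thy1 and Vim were separated lower, although both were present in every library. Thy1, a surface glycoprotein used to mark fibroblasts, held 800, 603 and 595 CPM in WT, 204, 397 and 407 in Trex1-/-, 208, 339 and 396 in D18N, and 83.5 and 118 in p212fs. The p212fs libraries lay below all other mutants (edgeR adjusted p among the mutants = 0.00855). Vim (vimentin), an intermediate filament protein, held 5237, 3202 and 3748 CPM in WT and from 2141 to 2924 in the mutants, at nearly the same log2 fold change in every genotype (-0.64, -0.72 and -0.64). They fell by 1.62 ± 0.24 and 0.66 ± 0.16 on the log2 scale (edgeR adjusted p = 0.0083 and 0.032). None of 20 collagens was separated, against 4.89% of all genes, while 6 of them fell by the edgeR test, against 3.79%. The median log2 fold change of the collagens was 0.05 in Trex1-/-, 0.41 in D18N and -1.22 in p212fs, so the genotypes did not share a direction.

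Lists with few or no separated members were also recorded. Of 30 p53 targets 2 were separated higher, against 2.29% of all genes, and 6 rose by the edgeR test, against 2.58%. The median log2 fold change of the p53 targets was 0.14 in Trex1-/-, -0.06 in D18N and 0.79 in p212fs. Eda2r, a receptor of the tumour necrosis factor family, held 11.1, 23.5 and 22.2 CPM in WT and 24.5 to 42.3 in the mutants (edgeR adjusted p = 0.0442), and Trp53inp1, a regulator of p53, held 22.6 to 55.3 in WT and 57.6 to 132 in the mutants (edgeR adjusted p = 0.0611). Of 20 genes of senescence and G1 control, Rb1, the retinoblastoma protein, was higher and Cdkn2c, an inhibitor of CDK4 and CDK6, lower. Cdkn2c held 53.8, 48.5 and 48.6 CPM in WT and 16.7 to 43.5 in the mutants (edgeR adjusted p = 0.016). No member was separated among 37 Hox genes, 40 positional factors, 25 imprinted genes and 29 genes of hypoxia and glycolysis, against 4.89% of all genes. The same held for 33 cytosolic ribosomal proteins and 20 chaperones of the unfolded protein response. It also held for the markers of endothelium, cartilage and bone, adipocytes, neurons and glia, and erythroid cells. At a share of 4.89% lists of these sizes would hold few separated genes. By the edgeR test, however, 9 of 21 neuronal and glial markers fell, against 3.79% of all genes, at a median log2 fold change of -0.73. Among the other lists without separated members named here, the Hox genes had the most calls, 1 higher and 3 lower.

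Differences among the mutants, which the rule does not fix, were tested over the 3 genotypes in edgeR. That test passed for 90 of 389 higher genes (23.1%) and 137 of 441 lower genes (31.1%), against 7203 of all genes (42.4%). These shares were not tested against each other, and a gene with 1 genotype at WT levels cannot be separated. D18N was the genotype farthest from WT for 162 higher and 278 lower genes, Trex1-/- for 115 and 29, and p212fs for 112 and 134. Without p212fs replicate 1, 2613 of all genes passed that test.

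Position on the genome was compared next. By the GRCm38 annotation, none of the 50 genes tested within 1 Mb of Trex1 was separated, and 3 of 152 within 5 Mb were (1.97%, against 4.89% of all genes). The nearest was Pth1r, the parathyroid hormone receptor, at 1.68 Mb, followed by Ccrl2, a chemerin receptor, at 2.0 Mb. Within 20 Mb the count was 11 of 336 (3.27%). On chromosome 9 as a whole 21 of 948 genes were higher (2.22%) and 20 lower (2.11%), against 2.29% and 2.6% of all genes. The median exonic length was 4872 bases for the higher and 3497 for the lower genes, against 4000 for all, and the median GC content was 47.5%, 51.7% and 49.6%.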

How the data were processed

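RNA-seq counts of 11 MEF libraries were analysed. The deposited table held raw counts, whole numbers with unequal totals that the authors had not scaled. The submitters' processing notes name GRCm39 as the mouse build and HISAT2, fastp and featureCounts as tools. Versions, annotation, strand setting and the treatment of shared reads are not given in the sources used here.

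Of 55578 lines, 1654 carried no gene name (0.0804% to 0.129% of a library) and were left out of totals and of the fits. Library totals were 16073955 to 21765536 counts. CPM used these totals. Genes passing filterByExpr (minimum count of 10) were fitted with edgeR 4.0.16 in R 4.3.3 (quasi-likelihood, TMM scaling, genotype as the only term, all 11 libraries), with a common biological coefficient of variation of 22.5%. The mean of the 3 mutant coefficients was tested against WT, each genotype alone against WT, and the 3 mutants among themselves. P-values were adjusted by the Benjamini-Hochberg method over 16990 genes, at a threshold of 0.05. The error given with a log2 fold change is an approximate standard error, its absolute value over the square root of F. The script was tested on simulated counts with known changes.

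The members and the 35 gene lists were chosen with earlier results of these data known. Genes were named by this rule: per direction, the 12 with the widest gap between the nearest mutant and WT libraries in log2(CPM + 1) among separated genes past the threshold, where a group reached a mean of 5 CPM; of those at least 2-fold changed in each genotype, the 5 with the smallest and the 5 with the largest range over genotypes; up to 3 separated members of each list; and 3 genes on each side of the rule's edge. Not all are printed, and other named genes were picked once their values were known (Ddx58, Usp18, Ccl5, Tap2, Tapbp, Csf1r, Spi1, Slc3a2, Psat1 and others, as printed). Predicted genes were left out.

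Library pairs within a genotype correlated at 0.96 to 0.994 (Spearman, across genes) and none was a duplicate. Replicate numbers are shared across genotypes in the labels but do not pair libraries. Gene positions, lengths and overlaps came from a GRCm38 annotation (GENCODE), matched by name for 99% of genes tested, and promoter windows from RefSeq (GRCm38.p6), without those of chromosome 18. Alternatives were DESeq2 1.42.0, limma-voom (limma 3.58.1), RLE scaling, equal library weights, a replicate block, a sex-pattern term, no filter, TMM-scaled CPM, a minimum of 5 CPM, a minimum gap and leaving out each library.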

Additional observations from a re-analysis of the deposited data

Results flagged for a closer look

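Trex1-/- replicate 2 stood apart from the other 7 mutant libraries in the mean log2(CPM + 1) of the interferon list, at 7.69, and of the MHC list, at 7.18. Its gap to the next library was 0.699 and 0.646 of the range of the 8 libraries, above the critical value of 0.526; chance alone gives such a value in about 1 of 20 groups. Both means stayed above every WT library in the 7 other mutant libraries.

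Among the genes named, 24 separated genes differed between the 3 mutant genotypes in the edgeR test (adjusted p). Of the macrophage and other blood cell genes these were C5ar1 (0.000402), Lyz2 (0.000418), Tyrobp (0.00048), Ms4a7 (0.00194), Trem2 (0.00438), Rac2 (0.00452), Marco (0.00471), Cyth4 (0.00542), Laptm5 (0.0105) and C1qb (0.0171), and D18N was the lowest genotype in each of them. Of the amino acid genes, Slc7a5 (0.000124) and Asns (0.0034) were lowest in p212fs and Phgdh (0.027) in D18N. Thy1 (0.00855) was lowest in p212fs, and mt-Nd2 (0.0131), Mcm2 (0.0173), Nbn (0.0239) and Cdc20 (0.0319) were lowest in D18N. Of the higher genes, Irgm2 (0.0233), Gvin1 (0.0352) and Iigp1 (0.0432) had the largest log2 fold change in Trex1-/-, where replicate 2 stood apart and the other libraries lay near or below those of D18N. The fold change was largest for Myog (3.68e-05) and Pla2r1 (0.00394) in D18N and Crispld1 (0.00114) in p212fs. These genotypes are compared with each other and share no WT library in this test.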

How the results depend on the processing

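Separation in CPM kept its counts within 1.5 times under TMM-scaled CPM and a minimum of 5 CPM, and the edgeR counts did so under RLE scaling and equal weights of libraries. Requiring the nearest libraries to be 1.5-fold apart left 42 higher and 22 lower genes, with 7 interferon, 2 MHC, 3 macrophage, 0 mitosis, 0 amino acid and 1 mitochondrial gene. The 2 mutant libraries of WT's sex pattern are Trex1-/- replicate 2, the library that stood apart in the interferon and MHC lists, and D18N replicate 1. No p212fs library is among them. Using only these separated 5976 of all 16990 genes, 2797 higher and 3179 lower. Among them were 58 interferon, 17 MHC, 10 amino acid and 12 mitochondrial genes. Fewer libraries have to clear WT there. DESeq2 called 1019 higher and 1201 lower genes, 286 of the separated higher genes, 40 interferon, 10 MHC and 8 mitosis genes. limma-voom called 5 interferon and 0 mitosis genes, and no filter called 2 interferon, 0 MHC and 0 mitosis genes. A sex-pattern term, of which WT holds 1 pattern only, gave 207 lower genes, 71 of them separated, and 50 interferon, 15 MHC, 12 macrophage, 0 mitosis, 9 amino acid and 3 mitochondrial genes; Ddx3y and Xist turned to -0.19 and 0.27 on the log2 scale. The causes were not tested.

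The replicate numbers did not pair the libraries: the correlation of deviations ran from -0.29 to 0.2 over 15 pairs, 4 of them over 0.1. With a replicate block, 239 genes rose and 377 fell, 105 and 169 of them separated, and 3 interferon, 0 MHC and 4 mitosis genes were called.

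Dropping single libraries in turn gave 401 to 1064 separated higher and 463 to 937 separated lower genes, highest without WT replicate 2. Separated list members ran from 27 to 44 (interferon), 7 to 16 (MHC), 15 to 21 (macrophage), 5 to 10 (mitosis), 5 to 10 (amino acid) and 3 to 5 (mitochondrial). The edgeR calls ran from 49 to 692 higher and 118 to 1071 lower, 30 to 369 and 73 to 531 of them separated, lowest without WT replicate 3 in each case. In the lists they ran from 0 to 42 (interferon), 0 to 11 (MHC), 13 to 24 (macrophage), 0 to 7 (mitosis), 6 to 15 (amino acid) and 1 to 7 (mitochondrial), and genes differing among the mutants from 2613 to 7998. Of 73 named genes, 58 were called, 20 of these stayed so without any 1 library, and 16 in every setting run: Pla2r1, Crispld1, C1qb, Trem2, Tyrobp, Lyz2, Ms4a7, C5ar1, Cyth4, Marco, Thy1, mt-Nd3, mt-Tl2, Asns, Phgdh and Slc7a5. Depth limits the genes of low level: 83 separated higher genes had under 1 CPM in WT and 60 lower genes under 1 CPM in the mutants.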

Other observations

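Genes of RNA processing and of ribosome assembly recurred among the separated lower genes; these families were counted by gene symbol after the values were seen and carry no test as groups. Of 20 hnRNP genes, whose proteins coat nascent RNA, 5 were separated lower (2.6% of all genes were). By the edgeR test 2 of them fell (3.79% of all genes did). Hnrnpa1 held 548, 535 and 527 CPM in WT, 452, 440.0 and 479 in Trex1-/-, 272, 289 and 401 in D18N, and 430 and 416 in p212fs. The 3 WT libraries were nearly equal, and by the rule all 8 mutant libraries lay under them. Of 22 genes of the U3 processome, which cuts ribosomal RNA, 6 were separated lower and 7 fell. Its member Nop58 held 121 to 142 CPM in WT and 53.1 to 120.1 in the mutants, a fall of 0.64 ± 0.12 on the log2 scale (edgeR adjusted p = 0.015). Of 9 genes of the RNA exosome 3 were separated lower. Shares were smaller in related families: 2 of 11 SR splicing factors were separated lower and 0 fell. In the eIF set, which by symbol holds Eif4ebp1 beside translation factors, 3 of 53 were separated lower (Eif2s2, Eif3c and Eif4ebp1) and 4 fell. Of 20 cytosolic aminoacyl-tRNA synthetases, which load tRNAs, 3 were separated lower and 7 fell; Lars, for leucine, held 202 to 231 CPM in WT and 112 to 197 in the mutants, with p212fs lowest.

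Several single genes of other kinds were separated, and they too were picked after their values were seen. Lmna, for the nuclear lamins A and C, held 1296, 943 and 1005 CPM in WT and from 506 to 868 in the mutants. Cav1, the coat protein of caveolae, held 387, 375 and 343 in WT, 185, 241 and 340.2 in Trex1-/-, 211.8, 224 and 177 in D18N, and 122 and 118 in p212fs. Hes1, a repressor downstream of Notch, held 50.2 to 68.5 in WT and 23.8 to 44.2 in the mutants. They fell by 0.78 ± 0.13, 1.02 ± 0.16 and 0.84 ± 0.17 on the log2 scale (edgeR adjusted p = 0.009, 0.008 and 0.017). Gja1, the gap junction protein connexin 43, was higher, at 103 to 152 CPM in WT and 157 to 282 in the mutants (0.79 ± 0.15, edgeR adjusted p = 0.017). Beyond the separated genes, 1 mutant library alone failed to clear WT for 610 further higher and 574 further lower genes, most often Trex1-/- replicate 3 (173 and 163) and Trex1-/- replicate 2 (151 and 120).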
